A study of Mus musculus with 23 samples.

Results

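Cadherins, claudins and integrins are the transmembrane proteins through which a cell holds on to its neighbours and to the matrix under it, and their messenger RNAs were followed here in mouse embryonic stem cells with and without a functional gene for the transcription factor BACH1. The members were chosen by a name rule in a table of expression values for 25124 genes, with earlier results of these data known. It took every protein-coding gene whose symbol is Cdh or Cldn followed by a number, or Itga or Itgb followed by number or letter code. That rule gave 72 members, of which 23 are cadherins, 23 are claudins, 18 are integrin α subunits and 8 are integrin β subunits. Desmosomal cadherins, protocadherins and the other genes of the cadherin superfamily carry other names and are not members.

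The cells were of the E14Tg2A line, a widely used mouse embryonic stem cell line, grown on gelatin in medium with serum and leukaemia inhibitory factor, which keeps such cells undifferentiated. The 3 wild-type (WT) libraries came from unmodified E14Tg2A cells and the 3 knockout libraries from cells of the same line carrying a Bach1-/- genotype made by CRISPR/Cas9. No knockout clone is named, so it is not known whether the 3 knockout libraries represent one clone or several, and no treatment or time point separates the genotypes. Polyadenylated RNA was sequenced, and values are in TPM, the share of a library's transcripts that a gene accounts for, which are scaled for transcript length and carry no sequencing depth. The series also holds chromatin immunoprecipitation samples, which are not analysed here.

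Classical cadherins bind the same cadherin on the next cell through their extracellular repeats and are tied to actin inside the cell by β-catenin or plakoglobin and α-catenin. Claudins span the membrane 4 times and polymerise into the strands of tight junctions, where the mix of claudins sets which ions pass between cells. An integrin is a pair of one α and one β subunit, and the pair decides which ligand is bound: laminin, fibronectin, other proteins with an RGD motif, collagen, or counter-receptors on other cells. Mouse embryonic stem cells grow as compact colonies held together by E-cadherin, the product of Cdh1.

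Below, a log2 fold change is the difference of mean log2(TPM + 1), while a level given as so many fold higher or lower is the ratio of mean TPM, which is larger for low genes. The targeted gene was lower in the knockout libraries without being absent. Its level was 2.35, 2.502 and 2.702 TPM in WT and 1.689, 1.762 and 2.045 TPM in the knockout. The groups did not overlap, and the log2 fold change of Bach1 was -0.31 (adjusted p = 0.00282, limma, Benjamini-Hochberg over all genes tested). After median-of-ratios scaling between libraries it was -0.17 (adjusted p = 0.0545), so the RNA level of Bach1 gives only a weak check of the genotype labels. The 3 libraries of a genotype lay close together, with correlations of log2(TPM + 1) between 0.9973 and 0.9976 within a genotype and between 0.915 and 0.916 across genotypes, and all 8 pluripotency markers on the list used reached 1 TPM. Over the 12196 genes that reached 1 TPM in at least 3 of the 6 libraries, the median log2 fold change was -0.20, against -0.03 with quantile-normalized and -0.02 with median-of-ratios scaled values.

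In the knockout libraries, summed claudin RNA was 1.98 times its WT level, and Cldn6 and Cldn7 rose from minor to major members. Cdh1 fell while its chromosomal neighbour Cdh3 rose, and the laminin and fibronectin receptor subunits Itga3, Itga5 and Itga6, with Itgb7 and Itga9, rose. Of the 72 members, 19 passed the filter of 1 TPM in 3 libraries and were tested, and 53 were not. Among those tested, 12 were called higher in the knockout, 4 were called lower and 3 were not called at an adjusted p of 0.05. Of all 12196 genes tested, 28.3% were called higher and 54.8% lower, or 83% in either direction, so a call by itself is common in these data. The 3 knockout values all lay above the 3 WT values for 12 of the 19 members and all below for 4, beside 28.8% and 55.4% of all genes tested. The median log2 fold change of the 19 members was 0.26, against the median of -0.20 over all genes. After quantile or median-of-ratios scaling 13 members were called higher and 2 lower, while 38.8% of all genes were called higher, 41.2% lower and 80% either way after the latter. A call with a log2 fold change of at least 1 was made for 4 members, Cldn6, Cldn7, Itga9 and Itgb7, beside 6.63% of all genes tested, and no member was called with one of -1 or below, beside 10.4%. As ratios of mean TPM, Cdh3 and Itga6 were also 2-fold higher and Itgal 2.54-fold lower. Itga9 passed the filter only through the knockout libraries and Itgal only through the WT libraries, so for both a difference was built into passing.

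**Figure D1:**
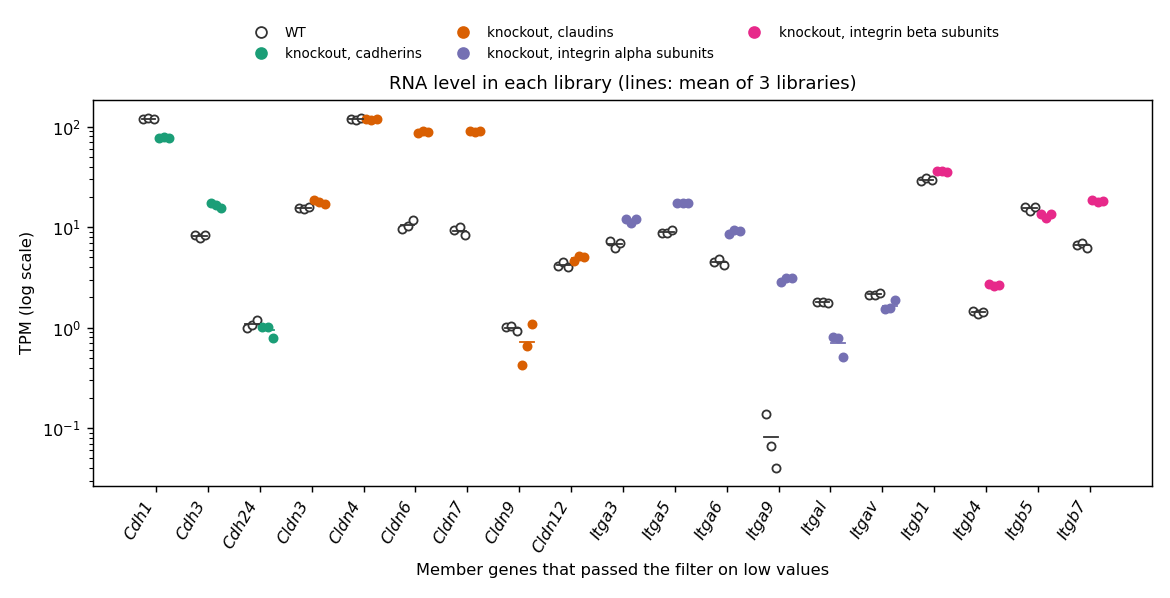
TPM on a log axis in each of the 6 libraries for the 19 member genes that were tested, with open points for WT, filled points coloured by family for the knockout, and short lines at the mean of 3 libraries. Cldn6 and Cldn7 moved from about 10 TPM to near 90 TPM, Cldn4 stayed near 118 TPM in both genotypes, and Cdh1 and Cdh3 moved in opposite directions.

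Cadherin RNA was lower in total in the knockout libraries and divided differently between E-cadherin and P-cadherin. Summed over the 23 cadherins, the level was 130 ± 1.28 TPM in WT and 97.9 ± 0.949 TPM in the knockout (SD, n = 3 libraries each). Of the 3 cadherins tested, 1 was called higher, 1 lower and 1 not, beside 28.3% higher and 54.8% lower of all genes tested.

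Cdh1, which encodes E-cadherin, was at 118.06, 120.977 and 118.816 TPM in WT and at 76.78, 78.729 and 77.635 TPM in the knockout. The genotypes were far apart relative to their spread, with every knockout library below every WT library, as for 55.4% of all genes tested. Of all genes tested, 23.3% had a lower log2 fold change than Cdh1. The level was 1.53-fold lower, and the log2 fold change was -0.61 (SE 0.0234, adjusted p = 2.07e-08), or -0.40 with median-of-ratios scaled values. Cdh3, which encodes P-cadherin, was at 8.409, 7.883 and 8.307 TPM in WT and at 17.264, 16.461 and 15.558 TPM in the knockout. All knockout libraries were above all WT libraries, and the log2 fold change was 0.92 (SE 0.0498, adjusted p = 1.89e-07). Both genes lie next to each other on chromosome 8 in the RefSeq annotation, with Cdh3 first. The ratio of Cdh1 to Cdh3 was 14.6 ± 0.691 in WT and 4.74 ± 0.274 in the knockout, and Cdh1 made up 91.7% of cadherin RNA in WT and 79.4% in the knockout.

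Cdh2, which encodes N-cadherin and replaces E-cadherin in many mesenchymal and neural cells, did not reach the filter. It was at 0.529, 0.723 and 0.81 TPM in WT and at 0.613, 0.7 and 0.697 TPM in the knockout. The knockout values lay within the WT range, and without the filter the log2 fold change was -0.01 (adjusted p = 0.898). Cdh24, a type II cadherin named here because it is the only other cadherin tested, was at 1.08 ± 0.108 TPM in WT and 0.939 ± 0.123 TPM in the knockout (log2 fold change -0.10, adjusted p = 0.215), with overlapping groups.

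The other cadherins were at or below 0.833 TPM in every library, and 13 of the 23 were below 0.1 TPM in all 6. Several of these low genes separated by genotype and are named after their values were seen. Cdh15, which encodes the M-cadherin of muscle precursors, was at 0.065, 0.08 and 0.055 TPM in WT and at 0.608, 0.761 and 0.833 TPM in the knockout. Cdh4, which encodes R-cadherin, was at 0.048, 0.053 and 0.025 TPM in WT and at 0.559, 0.346 and 0.441 TPM in the knockout. The type II cadherins Cdh9 and Cdh10, which are neighbours on chromosome 15, stood at means of 0.0167 and 0.0117 TPM in WT and of 0.253 and 0.227 TPM in the knockout. These 4 genes were higher in every knockout library, as were 25.6% of all genes above 0 TPM in any library. All 4 were called higher in a fit without the filter, where 23.5% of 20190 genes were called higher and 39.5% lower. Both backgrounds include genes that passed the filter. Cdh20, another type II cadherin, went the other way, from a mean of 0.262 TPM to 0.0313 TPM, and was called lower in that fit. Levels this low may come from few reads, and their number is not known. In a population of cells, a rare cell with much of an RNA and many cells with little of it cannot be told apart.

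Claudin RNA changed more than that of any other of the 4 families in summed level. The 23 claudins summed to 163 ± 2.82 TPM in WT and 322 ± 2.44 TPM in the knockout (SD, n = 3 each), a ratio of 1.98. Of the 6 claudins tested, 4 were called higher, none lower and 2 not called, and the median log2 fold change was 0.18. The shares over all genes tested were 28.3% higher and 54.8% lower.

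Cldn6, a claudin of embryonic epithelia and of pluripotent cells, was at 9.589, 10.357 and 11.712 TPM in WT and at 86.674, 89.971 and 88.135 TPM in the knockout. The lowest knockout library was far above the highest WT library. The mean TPM was 8.36-fold higher and the log2 fold change 2.95 (SE 0.0602, adjusted p = 5.50e-10), and 99.6% of all genes tested had a lower fold change. Cldn7, which binds the adhesion molecule EpCAM in epithelia, was at 9.302, 9.996 and 8.407 TPM in WT and at 90.553, 88.7 and 91.205 TPM in the knockout. The mean TPM was 9.76-fold higher and the log2 fold change 3.16 (SE 0.0534, adjusted p = 1.86e-10), and 99.7% of all genes tested lay below it. Cldn6 and Cldn7 are on different chromosomes, 17 and 11, and had close levels in both genotypes: their ratio was 1.15 ± 0.208 in WT and 0.979 ± 0.0307 in the knockout.

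Cldn4, a barrier-forming claudin and the most abundant claudin in both genotypes, was at 119.602, 117.886 and 123.042 TPM in WT and at 118.763, 116.158 and 120.301 TPM in the knockout. The groups overlapped, and the log2 fold change was -0.02 (SE 0.0257, adjusted p = 0.46). The sign depends on the scaling: quantile-normalized values gave 0.10 (adjusted p = 0.00509) and median-of-ratios scaled values 0.19 (adjusted p = 0.000156). Cldn3, a barrier-forming claudin encoded beside Cldn4 on chromosome 5, was at 15.475, 15.243 and 15.894 TPM in WT and at 18.677, 17.694 and 17.108 TPM in the knockout. All knockout libraries were above WT, by 1.15-fold, and the log2 fold change was 0.19 (adjusted p = 0.00283), or 0.40 with quantile-normalized and 0.39 with median-of-ratios scaled values. The long noncoding RNA Wbscr25 overlaps Cldn3 and was at 0.263 TPM in WT and 0.514 TPM in the knockout. The sources used here do not give the strand handling, and reads of overlapping genes cannot be told apart.

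**Figure D2:**
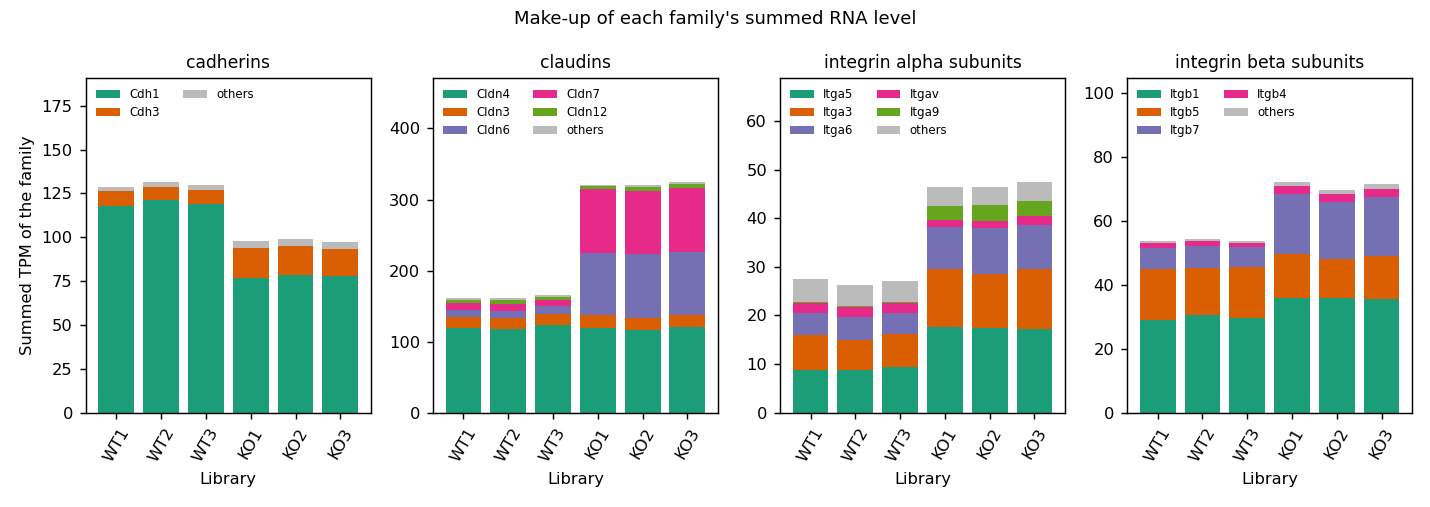
Stacked bars of TPM summed over each family in the 6 libraries, from 0, with the main members in colour and all remaining members in grey. The claudin bars are taller in the 3 knockout libraries through the Cldn6 and Cldn7 segments, and the cadherin bars are shorter through Cdh1.

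The make-up of claudin RNA shifted accordingly. Cldn4 was 73.9% of the total in WT and 36.8% in the knockout, and Cldn6 and Cldn7 together were 12.2% in WT and 55.5% in the knockout. Cldn3, Cldn4, Cldn6 and Cldn7 together made up 95.7% and 97.8%. The remaining 2 claudins tested are named because no other was. Cldn12, a claudin without the usual PDZ-binding tail, was at 4.23 ± 0.236 TPM in WT and 4.93 ± 0.296 TPM in the knockout (log2 fold change 0.18, adjusted p = 0.0227), and the fold change was 0.39 with quantile-normalized and 0.35 with median-of-ratios scaled values. Its call was lost on leaving out WT replicate 1, WT replicate 3, knockout replicate 2 or knockout replicate 3, with adjusted p of 0.0605, 0.0733, 0.0763 and 0.0682. Cldn9, which lies next to Cldn6 on chromosome 17, was at 1.025, 1.044 and 0.922 TPM in WT and at 0.421, 0.66 and 1.085 TPM in the knockout. Its groups overlapped through knockout replicate 3 (log2 fold change -0.23, adjusted p = 0.115), and without that library the fold change was -0.38 (adjusted p = 0.00466). Cldn6 thus rose while its neighbour Cldn9 was not called.

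Start regions of the 4 abundant claudins are shown because these genes share a family and in one case a locus, yet moved by very different amounts. They run 5′ to 3′ on the gene's strand, from 250 bases before to 50 bases after the RefSeq start, in build GRCm38.p6: chr17:23679115-23679414 on the plus strand for Cldn6, chr11:69964529-69964828 on the plus strand for Cldn7, chr5:134985964-134986263 on the plus strand for Cldn3 and chr5:134946885-134947184 on the minus strand for Cldn4. Capitals mark matches on either strand to CACCTG, the E-box bound by Snail and Zeb factors, or to TGAGTCA, the AP-1 element, which with flanking bases is also bound by BACH1 with small Maf proteins.
Cldn6: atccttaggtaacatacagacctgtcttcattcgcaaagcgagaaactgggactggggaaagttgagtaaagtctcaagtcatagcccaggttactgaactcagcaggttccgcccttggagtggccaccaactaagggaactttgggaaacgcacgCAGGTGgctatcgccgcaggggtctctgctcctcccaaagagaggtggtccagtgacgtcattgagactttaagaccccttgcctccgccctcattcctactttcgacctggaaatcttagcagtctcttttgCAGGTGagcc
Cldn7: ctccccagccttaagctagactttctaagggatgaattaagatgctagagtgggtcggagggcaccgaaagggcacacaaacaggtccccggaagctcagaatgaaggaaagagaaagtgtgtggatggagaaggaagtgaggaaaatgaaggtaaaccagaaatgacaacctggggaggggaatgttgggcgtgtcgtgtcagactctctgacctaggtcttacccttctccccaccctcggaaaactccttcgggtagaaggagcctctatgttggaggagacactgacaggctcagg
Cldn3: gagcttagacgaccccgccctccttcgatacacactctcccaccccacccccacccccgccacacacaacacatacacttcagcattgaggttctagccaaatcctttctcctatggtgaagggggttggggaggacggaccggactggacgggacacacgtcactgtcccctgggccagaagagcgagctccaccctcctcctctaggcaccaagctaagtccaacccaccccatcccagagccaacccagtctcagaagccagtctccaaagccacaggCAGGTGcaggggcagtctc
Cldn4: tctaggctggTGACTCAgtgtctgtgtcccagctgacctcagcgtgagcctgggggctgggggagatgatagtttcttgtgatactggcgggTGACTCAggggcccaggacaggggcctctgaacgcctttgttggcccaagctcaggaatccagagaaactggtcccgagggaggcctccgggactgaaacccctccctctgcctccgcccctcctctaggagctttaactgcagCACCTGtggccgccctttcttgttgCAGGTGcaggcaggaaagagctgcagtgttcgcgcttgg
The Cldn6 window held 2 E-boxes, beginning 93 bases before the start and at base 41 after it, and the Cldn3 window held 1. The Cldn4 window held 2 AP-1 elements, beginning 240 and 158 bases before the start, and 2 E-boxes. No match was found in the Cldn7 window shown. The table has another Cldn7 start at chr11:69965171-69965470, whose window held 2 E-boxes, and which start these cells use is not known here. TGACNNNGC, the core of the antioxidant response element bound by BACH1, which can overlap an AP-1 element on the same bases, was not found in any of the 4 windows. Of the 32851 promoters of this length in the RefSeq table, 12.4% held TGACNNNGC, 5.2% held TGAGTCA and 20.2% held CACCTG. The table had 62 promoters for 50 of the 72 members, of which 9.68%, 6.45% and 22.6% held the motifs in the same order. For 13 of the 19 members tested, Cdh1 and Cdh3 not among them, it had 17 promoters. Of these, 2, 2 and 7 held the motifs, or 11.8%, 11.8% and 41.2%. These are small numbers, several members share a locus or have more than 1 start, and the shares were not tested. A match is only a run of letters, and binding was not examined.

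Integrin α subunit RNA summed to 27 ± 0.647 TPM in WT and 46.7 ± 0.588 TPM in the knockout (SD, n = 3 each). Of the 6 α subunits tested, 4 were called higher and 2 lower, where 28.3% of all genes tested were called higher and 54.8% lower. Among these 6, Itga9 passed the filter only through the knockout libraries and Itgal only through the WT libraries. The median log2 fold change of the 6 was 0.79. In summed level, the subunits of laminin receptors and of RGD-binding receptors were higher in every knockout library. The leukocyte sum was lower, with Itgal at 1.78 TPM in WT and 0.701 TPM in the knockout and each other leukocyte subunit overlapping. The collagen receptor sum overlapped, while Itga1 within it was at 0.011 TPM in WT and 0.0567 TPM in the knockout, without overlap.

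Itga3, the α subunit of a laminin receptor with Itgb1, was at 7.322, 6.156 and 6.918 TPM in WT and at 12.068, 11.094 and 12.177 TPM in the knockout. Knockout libraries were all above WT, by 0.71 on the log2 scale (SE 0.0654, adjusted p = 6.69e-06). Itga6, a laminin receptor subunit that pairs with Itgb1 or Itgb4 and is used as a surface marker of stem cells, was at 4.508, 4.782 and 4.217 TPM in WT and at 8.522, 9.452 and 9.074 TPM in the knockout. All knockout libraries were above WT, by 0.86 on the log2 scale (SE 0.0597, adjusted p = 9.74e-07). Together with Itga7, at 0.814 TPM in WT and 0.732 TPM in the knockout, the laminin receptor α subunits summed to 12.1 ± 0.405 TPM and 21.5 ± 0.368 TPM.

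Itga5, the α subunit of the main fibronectin receptor, was at 8.662, 8.741 and 9.286 TPM in WT and at 17.54, 17.387 and 17.296 TPM in the knockout. It was 1.96-fold higher (log2 fold change 0.90, SE 0.0416, adjusted p = 7.13e-08) and was the most abundant α subunit in both genotypes. Itgav, which pairs with several β subunits to bind vitronectin and other RGD proteins, is named after its values were seen. It was at 2.15 ± 0.0591 TPM in WT and 1.66 ± 0.188 TPM in the knockout (log2 fold change -0.25, adjusted p = 0.00846), but the call was lost with quantile-normalized values (-0.13, adjusted p = 0.125) and with median-of-ratios scaled ones (-0.11, adjusted p = 0.182). Itga5, Itga8, Itgav and Itga2b, whose receptors bind RGD proteins, summed to 11.4 ± 0.44 TPM in WT and 20 ± 0.28 TPM in the knockout.

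Itga9, which pairs with Itgb1 and binds tenascin C and osteopontin, was at 0.137, 0.066 and 0.04 TPM in WT and at 2.863, 3.154 and 3.123 TPM in the knockout. It was nearly silent in WT and at a low but steady level in the knockout, and rose by 1.90 on the log2 scale (SE 0.0668, adjusted p = 1.20e-08). It passed the filter only through the knockout libraries, so a difference was built into its being tested. It made up 0.299% of α subunit RNA in WT and 6.52% in the knockout. Noncoding RNAs and a pseudogene lie within Itga9 in the RefSeq annotation, and their part in its value was not tested.

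Itgal, the α subunit of the leukocyte integrin LFA-1, is named after its values were seen. It was at 1.802, 1.782 and 1.762 TPM in WT and at 0.799, 0.791 and 0.514 TPM in the knockout. It fell by 0.71 on the log2 scale (SE 0.0798, adjusted p = 2.70e-05), but passed the filter only through the WT libraries, so a difference was built into its being tested. Its obligate partner Itgb2 was at means of 0.106 TPM and 0.133 TPM with overlapping groups. The leukocyte α subunits Itgad, Itgae, Itgal, Itgam and Itgax summed to 2.92 ± 0.134 TPM in WT and 1.75 ± 0.164 TPM in the knockout. Itgae, whose product pairs with Itgb7 and binds E-cadherin, was at 1.025, 0.975 and 0.772 TPM in WT and at 0.776, 0.729 and 0.807 TPM in the knockout, with overlapping groups.

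Integrin β subunit RNA summed to 53.9 ± 0.306 TPM in WT and 71.2 ± 1.23 TPM in the knockout. Of the 4 β subunits tested, 3 were called higher and 1 lower. A call in either direction was made for 83% of all genes tested, 28.3% higher and 54.8% lower. Itgb1, the β subunit shared by most α subunits above, was at 29.017, 30.638 and 29.498 TPM in WT and at 36.051, 35.868 and 35.667 TPM in the knockout. All knockout libraries were above WT, by 1.21-fold, and the log2 fold change was 0.26 (SE 0.0316, adjusted p = 4.43e-05), or 0.45 with quantile-normalized and 0.47 with median-of-ratios scaled values. The ratio of summed β to summed α RNA was 2 ± 0.0598 in WT and 1.52 ± 0.0268 in the knockout.

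Itgb7, the β subunit of lymphocyte homing integrins with Itga4 or Itgae as partner, was at 6.609, 7.026 and 6.175 TPM in WT and at 18.76, 17.79 and 18.333 TPM in the knockout. It was 2.77-fold higher (log2 fold change 1.34, SE 0.0516, adjusted p = 2.12e-08) and went from 12.2% to 25.7% of β subunit RNA. Neither partner was higher with it: Itga4 was at 0.22, 0.148 and 0.165 TPM in WT and at 0.034, 0.084 and 0.049 TPM in the knockout, and the groups of Itgae overlapped as given above. In both genotypes Itgb7 RNA was above the RNA of both its α partners together.

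Itgb5, which pairs with Itgav as a vitronectin receptor, was at 15.966, 14.632 and 16.049 TPM in WT and at 13.563, 12.254 and 13.484 TPM in the knockout. The groups did not overlap (log2 fold change -0.23, adjusted p = 0.00315), but the difference was close to that of the median gene, and the call was lost with quantile-normalized values (-0.02, adjusted p = 0.735) and with median-of-ratios scaled ones (-0.03, adjusted p = 0.605). Itgb4, the partner of Itga6 in hemidesmosomes, is named after its values were seen. It was at 1.42 ± 0.0408 TPM in WT and 2.67 ± 0.0516 TPM in the knockout (log2 fold change 0.60, adjusted p = 7.62e-06). It overlaps Galk1, a galactose kinase gene at 72.8 TPM in WT and 102 TPM in the knockout, and reads of the pair cannot be told apart where they overlap.

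**Figure D3:**
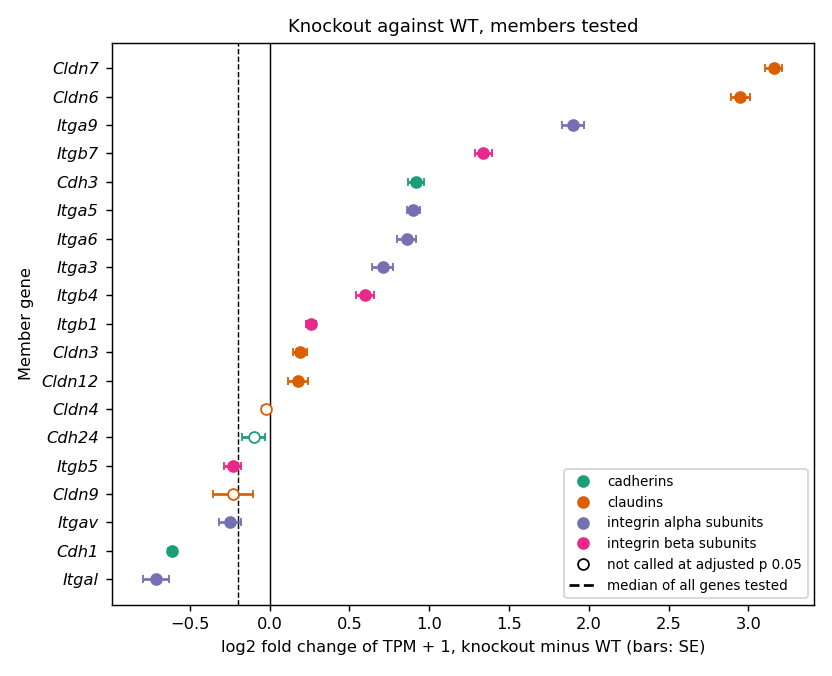
Log2 fold change of TPM + 1, knockout minus WT, for the 19 members tested, coloured by family, with bars for the SE of the limma fit, open points for members not called, a solid line at 0 and a dashed line at the median of all genes tested (-0.20). Cldn7 (3.16), Cldn6 (2.95), Itga9 (1.90) and Itgb7 (1.34) lie farthest to the right, and Itgal (-0.71) and Cdh1 (-0.61) farthest to the left.

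The 53 members under the filter reached at most 1.25 TPM in any library, for Itgb3. Of all 72 members, 50 were below 1 TPM in every library, 27 were below 0.1 TPM in every library, and 2, Cdh7 and Cldn17, were listed at 0 throughout. Among the 53, the knockout libraries all lay above WT for 16 and all below for 6. Of the 12928 genes of the whole table under the filter, 4934 were at 0 throughout, 1651 lay all above and 1739 all below. Over all genes above 0 TPM in any library, those that passed the filter included, the shares above and below were 25.6% and 42.1%. In a fit without the filter, 51 of the 53 members had a value, and 12 were called higher and 5 lower. Of the 20190 genes in that fit, 23.5% were called higher and 39.5% lower, but these also include the genes that passed the filter.

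Examples from these low members were chosen after their values were seen. Itga2b and Itgb3, the subunits of the platelet fibrinogen receptor, were both called higher without the filter. Itga2b was at 0.325, 0.25 and 0.359 TPM in WT and at 0.765, 0.72 and 0.981 TPM in the knockout (log2 fold change 0.47 and adjusted p = 0.000714 without the filter). Itgb3 was at 0.502, 0.507 and 0.466 TPM in WT and at 0.943, 1.168 and 1.251 TPM in the knockout (0.50, adjusted p = 0.000471). Itga8, an RGD-binding subunit known from kidney development, was at a mean of 0.00667 TPM in WT and 0.14 TPM in the knockout. Among claudins, Cldn1, needed for the skin barrier, and Cldn2, which forms a cation pore, were listed at 0 in all WT libraries and stood at means of 0.115 and 0.0943 TPM in the knockout. Cldn5, the main claudin of blood vessels of the brain, fell from a mean of 0.969 TPM to 0.594 TPM, and Cldn18, known from stomach and lung, from 0.149 TPM to 0.0207 TPM, both called without the filter (adjusted p = 0.0184 and 0.00279). The collagen receptor subunits Itga1, Itga2, Itga10 and Itga11 summed to 0.326 ± 0.126 TPM in WT and 0.331 ± 0.0574 TPM in the knockout, with overlapping groups.

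**Figure D4:**
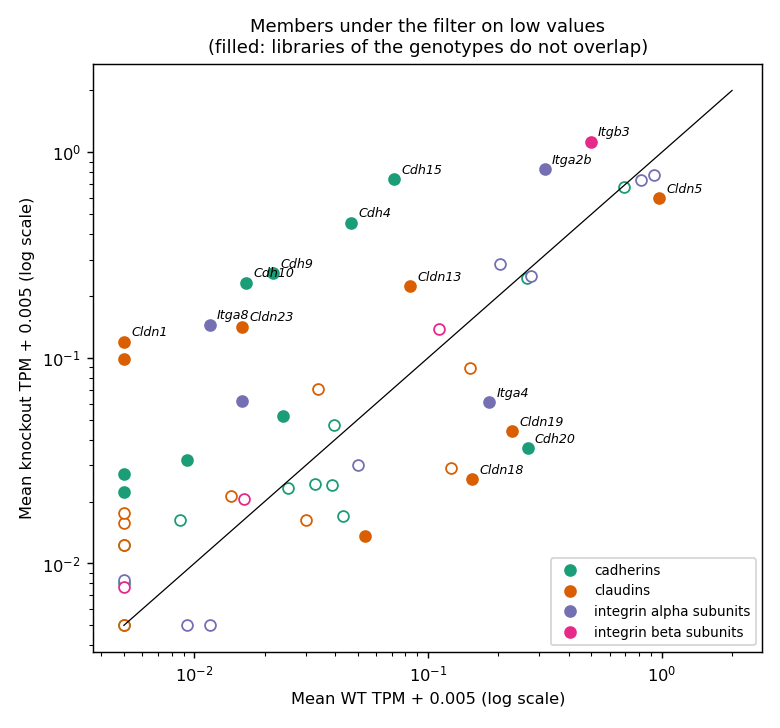
Mean TPM of 3 knockout libraries against mean TPM of 3 WT libraries, both with 0.005 added and on log axes, for the 53 members under the filter, coloured by family. Filled points are the 22 members whose libraries do not overlap between genotypes, and names are printed for those with a mean of at least 0.1 TPM in either genotype.

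In the authors' deposited table of transcripts higher in the knockout, 12 members were listed, among 1883 transcripts or 7.49% of the genes in the expression table. These were Cldn6, Cldn7, Itga6, Itga9 and Itgb7, and 7 members that are under the filter here. The authors' deposited table of transcripts lower in the knockout held 4 members, Cdh20, Cldn18, Itga4 and Itgal, among 2523 transcripts or 10%. The authors' deposited table gave log2 fold changes of 3.09 for Cldn6, 3.28 for Cldn7 and 5.56 for Itga9, the last on a scale without the pseudocount of 1 TPM used here, which shrinks the change of a gene near 0. Every member in these lists had a log2 fold change above 1 in size there, the smallest being 1.01 for Itga6, while calls here had no fold threshold. Cdh1 and Cdh3 were in neither list. By mean TPM here, Cdh1 was 1.53-fold lower and Cdh3 2-fold higher.

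Genes that work with the members moved in both directions. The 9 lists used were written with earlier results of these data known. They held 138 genes, of which 107 were tested, 52 were called higher, 39 lower and 16 not, with a median log2 fold change of 0.09. Over all genes tested, 28.3% were called higher and 54.8% lower, and the counts of each list below are to be read against these shares. After either scaling the counts were 63 higher and 32 lower. Of the 107, 10 passed the filter only through the knockout libraries and 4 only through the WT libraries, so that a difference was built into their passing. Among the genes named below, these are Nectin4, Esam, Snai3, Twist1 and Esrp1 through the knockout and Ctnnd2 and Tcf4 through WT.

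At adherens junctions, 2 of 7 catenins tested were called higher and 3 lower, and after either scaling 4 were higher and 2 lower. Ctnnb1, which encodes β-catenin, the link of cadherins to α-catenin and a Wnt effector, was at 94.244, 96.393 and 93.483 TPM in WT and at 50.152, 53.733 and 51.371 TPM in the knockout. Its level fell with that of Cdh1, by 0.86 on the log2 scale (SE 0.0312, adjusted p = 1.50e-08). Jup, which encodes plakoglobin and can take the place of β-catenin on cadherins, rose from 35.8 to 46.4 TPM (log2 fold change 0.36). Ctnnbip1, an inhibitor of β-catenin, rose from 7.35 to 10.1 TPM, and Ctnnd2, a δ-catenin mostly known from neurons, fell from 1.31 to 0.366 TPM. The nectins, immunoglobulin-type adhesion molecules that join cadherins at the junction, and their adaptor afadin were called higher in 5 of 5, Nectin4 among them, with a median of 0.80, where 28.3% of all genes tested were called higher. Nectin2 rose from 42 to 74 TPM, Nectin3 from 2.66 to 6.3 TPM, Nectin1 from 3.84 to 6.34 TPM and Nectin4 from 0.451 to 1.54 TPM.

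Of 23 tight junction proteins other than claudins, 14 were called higher and 6 lower, with a median of 0.34. Cgn, which encodes the scaffold cingulin, rose from 1.94 ± 0.154 to 7.59 ± 0.114 TPM, and Crb3, an apical polarity protein, from 12.6 ± 1.10 to 33.1 ± 1.15 TPM. Esam, an adhesion molecule best known from endothelium, was at 0.206 TPM in WT and rose to 2.75 TPM, while Jam3, a junctional adhesion molecule, fell from 23.9 to 8.56 TPM. The claudin-binding scaffold Tjp1 and occludin, Ocln, were higher by small amounts: Tjp1 from 5.13 to 5.92 TPM (adjusted p = 0.0139) and Ocln from 1.6 to 2.41 TPM (adjusted p = 0.000389). Of 6 desmosomal genes, 3 were called higher and 2 lower. Perp, a membrane protein of desmosomes, rose from 3.33 to 22.4 TPM and the plaque protein Pkp3 from 4.78 to 13.4 TPM, while the desmosomal cadherin Dsg2 fell from 11.4 to 3.01 TPM and the plaque protein Pkp2 from 20.3 to 15.3 TPM.

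On the integrin side, 11 of 28 adhesion complex genes were called higher and 10 lower, and after either scaling 17 were higher and 6 lower, so the balance of this list rests on the scaling. Bcar1, an adaptor phosphorylated on integrin binding, rose from 8.77 to 29.4 TPM. Ptk2b, a kinase related to focal adhesion kinase, rose from 0.947 to 9.81 TPM, and Zyx, which encodes the actin regulator zyxin and overlaps Epha1, from 3.23 to 13.6 TPM. Kank2, which binds talin at the rim of adhesions, fell from 27.5 to 10.3 TPM. Of 11 matrix ligands, 5 were called higher and 6 lower. Fn1, the fibronectin bound by the Itga5 receptor, fell from 92.5 to 27.2 TPM although Itga5 rose. Spp1, the osteopontin bound by the Itga9 and Itgav receptors, fell from 445 to 151 TPM. Among laminin chains, bound by the Itga3 and Itga6 receptors, Lamb1 rose from 4.51 to 19.1 TPM and Lama1 fell from 13.1 to 3.56 TPM. The tetraspanins and related partners of integrins in the membrane were called higher in 3 of 8 and lower in 5, and lower in 3 after either scaling. Cd9 fell from 310 to 107 TPM, Cd63 from 282 to 199 TPM and Tspan3 from 30 to 21.4 TPM, and Tspan4 rose from 19.3 to 28 TPM.

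Among transcription factors of epithelial-to-mesenchymal transition, several of which repress Cdh1, 2 of 5 tested were called higher and 2 lower. Snai1 was at 6.216, 4.995 and 5.36 TPM in WT and at 4.685, 5.243 and 5.691 TPM in the knockout, overlapping and not called (adjusted p = 0.455). Snai3 rose from 0.435 to 4.79 TPM and Twist1 from 0.485 to 2.48 TPM, while Tcf4 fell from 4.51 to 0.772 TPM and Tcf3 from 39.3 to 27.7 TPM. The rest of the 10 listed were under the filter and not tested, and are named after their values were seen. Zeb1 went from 0.996 to 0.119 TPM and Snai2 from 0.368 to 0.08 TPM, with every knockout library below WT. Zeb2 went from 0 to 0.0353 TPM, with every knockout library above WT. Twist2 (0.0523 and 0.234 TPM) and Prrx1 (0.009 and 0 TPM) had overlapping groups. Of 14 epithelial regulators, 7 were called higher and 5 lower. Esrp1, an epithelial splicing factor, was below 1 TPM in every WT library and was at 0.398 ± 0.123 TPM in WT and 18.7 ± 0.355 TPM in the knockout, a log2 fold change of 3.82. Epcam, whose product binds Cldn7, was at 37.465, 41.716 and 41.232 TPM in WT and at 104.474, 105.426 and 108.098 TPM in the knockout, 2.64-fold higher (log2 fold change 1.38, adjusted p = 4.59e-09). Spint2, an inhibitor of the protease that cleaves EpCAM, rose from 107 to 275 TPM. The epithelial factor Klf4 fell from 44.4 to 10.6 TPM, and Elf3 fell from 126 TPM in WT to 57.7 TPM.

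**Figure D5:**
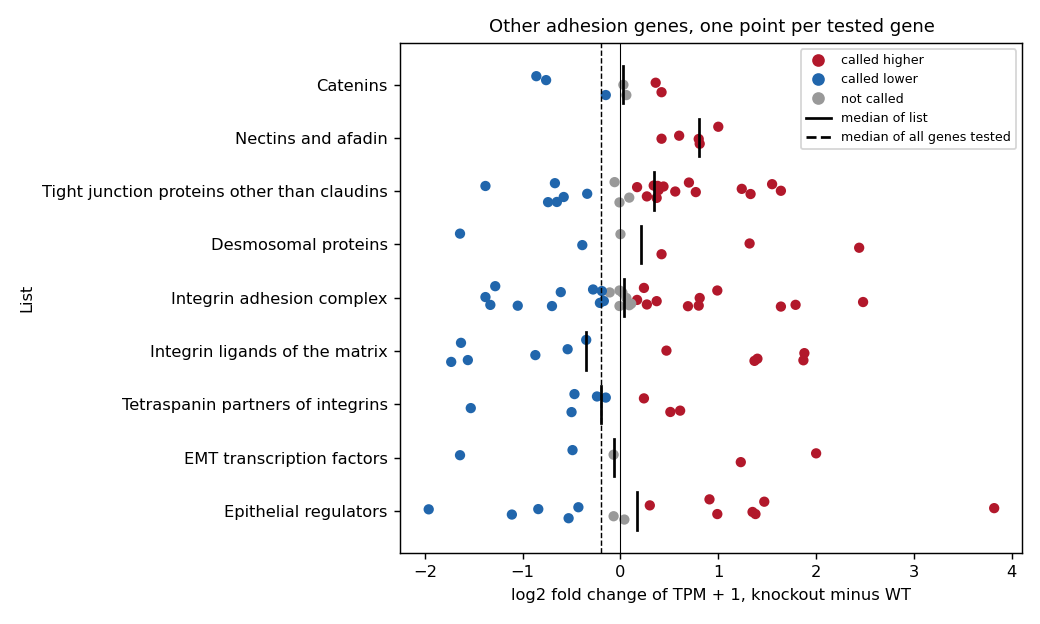
Log2 fold change of TPM + 1, knockout minus WT, for the 107 tested genes of the 9 lists of other adhesion genes, with red points called higher, blue points called lower, grey points not called, a short line at each list's median and a dashed line at the median of all genes tested (-0.20). All 5 nectin and afadin genes lie to the right of 0 (median 0.80), and the matrix ligands (median -0.35) split into a lower and a higher group.

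Summed markers of other cell types differed between the genotypes, and genes of one list did not all move the same way. Of 10 fibroblast markers, 2 reached 1 TPM and moved in opposite directions, Thy1 from 3.11 to 12 TPM and Pdgfrb from 2.58 to 0.583 TPM, and the list summed to 6.68 to 7.13 TPM in WT and 12.7 to 13.7 TPM in the knockout. For trophectoderm, 6 of 8 reached 1 TPM, with sums of 31.6 to 32.3 and 42.4 to 44 TPM, and Krt7 went from 4.03 to 19.4 TPM while Tfap2c went from 20.4 to 13.6 TPM. For primitive and visceral endoderm, 2 of 8 did, with sums of 1.7 to 2.1 and 4.89 to 6.01 TPM. Dab2 went from 0.282 to 2.36 TPM, while Gata4, Gata6, Sox17 and Afp had overlapping groups. Sox7, Foxa2 and Ttr were below 1 TPM in every library, with every knockout library above WT. The blood list, relevant to Itgal, Itgb7 and Itga2b, had 2 of 8 at 1 TPM, sums of 8.53 to 8.71 and 14.4 to 15.1 TPM, and Hbb-b1 at 0. Those 2 also moved in opposite directions, Coro1a from 1.23 to 12 TPM and Spi1 from 6.65 to 1.98 TPM. The endothelial list had 3 of 8, sums of 43.9 to 48.3 and 55.6 to 61.8 TPM, most of it Egfl7 at 41.4 TPM in WT and 55.9 TPM in the knockout, and Emcn at 0. The neural list had 2 of 8 and was lower in the knockout, at 77.8 to 80.8 and 51.7 to 53.4 TPM, most of it Tubb3 at 68.5 and 44.9 TPM. The pluripotency list summed to 5101 to 5261 TPM in WT and 6092 to 6263 TPM in the knockout, most of it Dppa5a at 2771 and 3701 TPM and Pou5f1 at 1232 and 1557 TPM. Pou5f1, Dppa5a, Zfp42 and Lin28a were called higher, with Zfp42 from 320 to 378 TPM and Lin28a from 15 to 65 TPM. Nanog, which fell from 306 to 116 TPM, and Sox2, Tdgf1 and Fgf4 were called lower. These marker genes are named after their values were seen. The part of these cell types in the members' changes was not tested.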

How the data were processed

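RNA of 3 WT and 3 Bach1 knockout libraries was used, and the labels' design text calls them biological triplicates; p-values measure only the spread between these libraries. The authors deposited TPM values for 25124 genes, 1 transcript each, which sum to 604964 to 606200 per library. The submitters' processing notes name Trim Galore, HISAT2, HOMER, limma and build mm9, and the role of each, counting and strand settings are not given in the sources used here. TPM carry no depth, so no counting error or detection limit can be given. The log2 fold changes and p-values in the authors' deposited lists are quoted as theirs.

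From the TPM, log2(TPM + 1) was computed for the 12196 genes that reached 1 TPM in 3 or more of the 6 libraries and fitted with limma 3.58.1 in R 4.3.3 (lmFit, eBayes with trend), knockout minus WT, with p adjusted by Benjamini-Hochberg over all genes tested and a call at 0.05. This scale understates the change of low genes. The fit was also run on simulated data with independent noise and few changed genes. That setting is unlike these data, so the run does not bear on the calls given here. Tried alternatives were pseudocounts of 0.1 and 5, no filter, a mean of at least 5 TPM, quantile normalization, median-of-ratios scaling, no trend, a replicate block and leaving out each library. Library numbers did not pair the samples.

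Members, lists and rules were chosen with earlier results of these data known. Named are all members with a mean of at least 5 TPM in either genotype. Called members with a log2 fold change of at least 1 in size are named too. So are Cdh2, Tjp1, Ocln, Ctnnb1, Snai1, Epcam and Bach1, and up to 4 called genes with the smallest p of each list. Other genes fall outside this rule and were named with their values known, among them Itga4, Itga7, Itgae and Itgb2, where the text does not say so. Promoters are from RefSeq (GRCm38.p6). Chromatin data were not analysed here.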

Additional observations from a re-analysis of the deposited data

How the results depend on the processing

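Of 259 values of single members under the 14 alternatives, 248 kept direction and side of the threshold, 8 lost a call, and 3 gained one, 2 of them with a change of sign, and 14 of the 19 members tested kept both throughout. The sign changes were Cldn4 at 0.10 with quantile-normalized and 0.19 with median-of-ratios scaled values. Without the filter, 24 members were called higher and 9 lower: 5 and 2 cadherins, 8 and 3 claudins, and 7 higher α subunits. With a mean of at least 5 TPM, 2112 genes were called higher and 4430 lower over all genes, 2 members lower, 0 α subunits lower, and 28 other adhesion genes higher; fewer genes are tested there. After quantile or median-of-ratios scaling, 2 members were called lower, 1 of them an α subunit and 0 β subunits, and all genes split into 4608 higher and 5091 lower, or 4737 and 5025. Median-of-ratios scaling took Bach1 to -0.17 and the WT and knockout sums to 120 and 105 TPM for cadherins, 150 and 345 for claudins, 24.9 and 50.1 for α and 49.8 and 76.3 for β subunits. Leaving out 1 library gave 11 to 12 members higher and 4 to 5 lower, 3 to 4 claudins higher and 0 to 1 lower (Cldn9, without knockout replicate 3), and 3322 to 3371 genes higher and 6484 to 6532 lower. With the replicate number as a block, 3457 genes were called higher and 6692 lower, and 12 members higher and 4 lower; no member's call changed. Same-numbered libraries did not deviate together (correlations of -0.003, 0.07 and -0.001), and not every library correlated best with its own number. The causes of these shifts were not tested. The count of chromatin peaks at member start sites was not run. TPM give no depth, so members under 0.1 TPM may rest on very few reads.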

Other observations

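Genes of the wider cadherin superfamily, grouped after their values were seen, moved in both directions, as the classical members did. Of 58 clustered protocadherins in the table, neuronal identity molecules encoded in one array on chromosome 18, 22 were tested, and all 22, members of the γ cluster, were called lower in the knockout, where 54.8% of all genes tested were called lower. Pcdhgc3, for example, was at 9.489, 8.82 and 8.798 TPM in WT and at 5.487, 5.037 and 5.284 TPM in the knockout (log2 fold change -0.68, adjusted p = 2.29e-06, limma). Most of the 22 had almost the same values, such as Pcdhga2 at 8.7 and 5.24 TPM and Pcdhgb1 at 8.72 and 5.24 TPM. Transcripts of this cluster end in shared constant exons, so the values of single genes are uncertain and the 22 calls are not independent. Pcdhgb8 was at 1.73 TPM in WT and 0.443 TPM in the knockout and passed the filter only through the WT libraries.

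Outside the clusters, Pcdh1, a protocadherin of epithelia, was at 0.49 ± 0.0385 TPM in WT and 2.69 ± 0.264 TPM in the knockout (SD, n = 3 each), a log2 fold change of 1.31, and passed the filter only through the knockout libraries. Fat1, a very large cadherin that bears on planar polarity and growth control, was at 3.71 ± 0.267 TPM in WT and 5.82 ± 0.249 TPM in the knockout (0.54, adjusted p = 3.28e-05). The calsyntenin Clstn3 was at 10.1 ± 0.17 TPM in WT and 8.17 ± 0.163 TPM in the knockout (-0.28, adjusted p = 0.000222), and its relative Clstn1 was not called (0.02, adjusted p = 0.599).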
